A study of Mus musculus with 12 samples.

Results

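Cyp4 genes encode cytochrome P450 enzymes that hydroxylate fatty acids, mostly at the terminal (omega) carbon. The 10 Cyp4 genes described here were Cyp4a10, Cyp4a14, Cyp4a12a, Cyp4a12b, Cyp4a31, Cyp4a32, Cyp4b1, Cyp4f13, Cyp4f14 and Cyp4v3, taken by name from a table of 46095 gene symbols. All 10 were counted deeply enough to be tested, among 17530 tested genes. Of 27 symbols of the Cyp4 family in the table, 17 were tested. RNA-seq was made from renal cortex of C57BL/6 mice, labelled 12 weeks of age, in 3 groups of 4 libraries. NC is the normal control, DN is the diabetic nephropathy model, and DN+NaB is the same model treated with sodium butyrate, a salt of butyric acid, which gut microbes release from fibre. How diabetes was induced, the butyrate dose and the sex of the mice were not given in the sources used here. The labels do not say that each library came from its own mouse, so p-values measure only the spread between these libraries, which may be technical. Renal cortex is the labelled tissue, but the text on extraction names prefrontal cortex. Kidney markers were high (10 proximal tubule S1 and S2 markers summed to at least 19499 CPM, read counts scaled to a common library total, in every library) and the neuronal marker Snap25 had no count in any.

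Omega-hydroxylation passes fatty acids to alcohol and aldehyde dehydrogenases, which turn them into dicarboxylic acids for peroxisomal oxidation. In the kidney the same chemistry on arachidonic acid makes 20-HETE, a lipid that acts on vessel tone and tubular salt transport. Cyp4a10 and Cyp4a14 are classic targets of the fatty acid receptor PPAR-alpha, and Cyp4a12a, the main 20-HETE producer of the mouse, is known as an androgen-raised gene of the male kidney. The members of the Cyp4a group lie beside each other on chromosome 4 together with Cyp4b1, Cyp4v3 is on chromosome 8, and Cyp4f14 and Cyp4f13 are neighbours on chromosome 17 (gene order from RefSeq, GRCm38.p6).

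Several of these genes are near-identical copies, so a short read from a shared stretch cannot be given to 1 of them. How the authors handled such reads is not given in the sources used here. Over the coding sequence (GENCODE vM21 transcripts, GRCm38) Cyp4a12a and Cyp4a12b were 98.5% identical, with 23 differing bases of 1524. Cyp4a10 was 96.6% identical to Cyp4a31 and 97.2% to Cyp4a32, and Cyp4a31 was 96.0% identical to Cyp4a32. Cyp4a14 was 76.8% identical to Cyp4a10, and Cyp4f13 was 78.3% identical to Cyp4f14. The 90 coding bases around the heme-binding cysteine, whose motif spans bases 31 to 60 of the stretch, show both relations. Capitals mark bases that differ from Cyp4a10:
Cyp4a10: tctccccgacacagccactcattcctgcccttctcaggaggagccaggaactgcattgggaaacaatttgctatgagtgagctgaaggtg
Cyp4a31: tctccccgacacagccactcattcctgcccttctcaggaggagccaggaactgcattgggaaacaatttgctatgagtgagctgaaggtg
Cyp4a32: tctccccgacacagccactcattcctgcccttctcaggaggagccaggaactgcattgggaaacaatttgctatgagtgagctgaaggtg
Cyp4a12a: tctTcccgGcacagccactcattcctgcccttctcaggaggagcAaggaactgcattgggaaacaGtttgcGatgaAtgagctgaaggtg
Cyp4a12b: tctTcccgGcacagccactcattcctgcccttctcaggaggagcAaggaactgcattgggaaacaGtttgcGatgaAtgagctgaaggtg
Cyp4a14: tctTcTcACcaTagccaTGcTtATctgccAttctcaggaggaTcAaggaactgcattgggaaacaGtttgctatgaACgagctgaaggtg

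In that stretch Cyp4a10, Cyp4a31 and Cyp4a32 had no difference, Cyp4a12a and Cyp4a12b differed from Cyp4a10 at the same 6 bases, and Cyp4a14 differed at 16. The copies can be told apart elsewhere. The 90-base coding stretch with the most differences lies at coding bases 661 to 750 of Cyp4a12a and Cyp4a12b, where 7 bases differ (capitals):
Cyp4a12a: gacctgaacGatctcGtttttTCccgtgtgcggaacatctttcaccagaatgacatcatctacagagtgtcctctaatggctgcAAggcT
Cyp4a12b: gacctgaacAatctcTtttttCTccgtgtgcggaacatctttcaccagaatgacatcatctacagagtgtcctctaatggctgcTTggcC

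For the other 3 copies it lies at coding bases 190 to 279, where 13 positions differ in at least 1 copy (capitals):
Cyp4a10: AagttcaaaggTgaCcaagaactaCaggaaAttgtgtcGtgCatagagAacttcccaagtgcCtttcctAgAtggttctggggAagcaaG
Cyp4a31: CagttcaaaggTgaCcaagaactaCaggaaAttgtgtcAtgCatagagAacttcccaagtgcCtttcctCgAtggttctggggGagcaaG
Cyp4a32: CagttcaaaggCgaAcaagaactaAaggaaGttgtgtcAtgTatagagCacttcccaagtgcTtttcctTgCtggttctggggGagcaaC

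Of all 50-base windows along its transcript, 48.9% of those of Cyp4a12a and 49.4% of those of Cyp4a12b occurred unchanged in the other copy. For Cyp4a10, Cyp4a31 and Cyp4a32 the shares found in another member were 30.5%, 20.1% and 46.8%. Cyp4b1 shared 10.3% of its 50-base windows with its pseudogenes Cyp4b1-ps1 and Cyp4b1-ps2, and Cyp4a14 and Cyp4v3 shared none. Windows were searched only in the members and these pseudogenes, not in other Cyp4 genes or pseudogenes. Longer windows were shared less. Of 100-base windows, 35.8% of those of Cyp4a12a and 36.2% of those of Cyp4a12b were shared. For Cyp4a10, Cyp4a31 and Cyp4a32 the 100-base shares were 12.7%, 8.22% and 20.1%. Each copy is therefore given alone and as a sum: Cyp4a12a+Cyp4a12b, Cyp4a10+Cyp4a31+Cyp4a32, and all 6 Cyp4a genes.

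Total counts ran from 58394975 to 70674015 per library, with a median of 63588713. The members held from 109 counts (Cyp4f14 in an NC library) to 132385 counts (Cyp4b1 in an NC library). CPM values include trimmed-mean (TMM) scaling factors. A gene is called when its edgeR quasi-likelihood p, adjusted by Benjamini-Hochberg over all 17530 genes, is under 0.05. In bulk tissue, fewer cells of a type and less RNA per cell cannot be told apart. Among the members, DN replicate 4 was the lowest DN library for 7 of 10 genes, DN+NaB replicate 2 was the highest of its group for 7, and NC replicate 2 was the highest of its group for 6.

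In the diabetic cortex 5 of the 10 members rose, all of them Cyp4a genes, 1 fell (Cyp4b1) and 4 did not pass the test. Over all genes 8.23% were called in DN against NC, 3.82% higher and 4.42% lower. The median log2 fold change was 0.75 over the members and 0.01 over all tested genes. All DN libraries lay above all NC libraries for 6 members, against 5.86% of all genes, and below them for 1, against 7.49%. The members were chosen with earlier results of these data known, and near-identical copies may share reads. The counts and the median therefore describe the members and do not test them as a set. Within the diabetic mice, butyrate gave no called member.

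**Figure D1:**
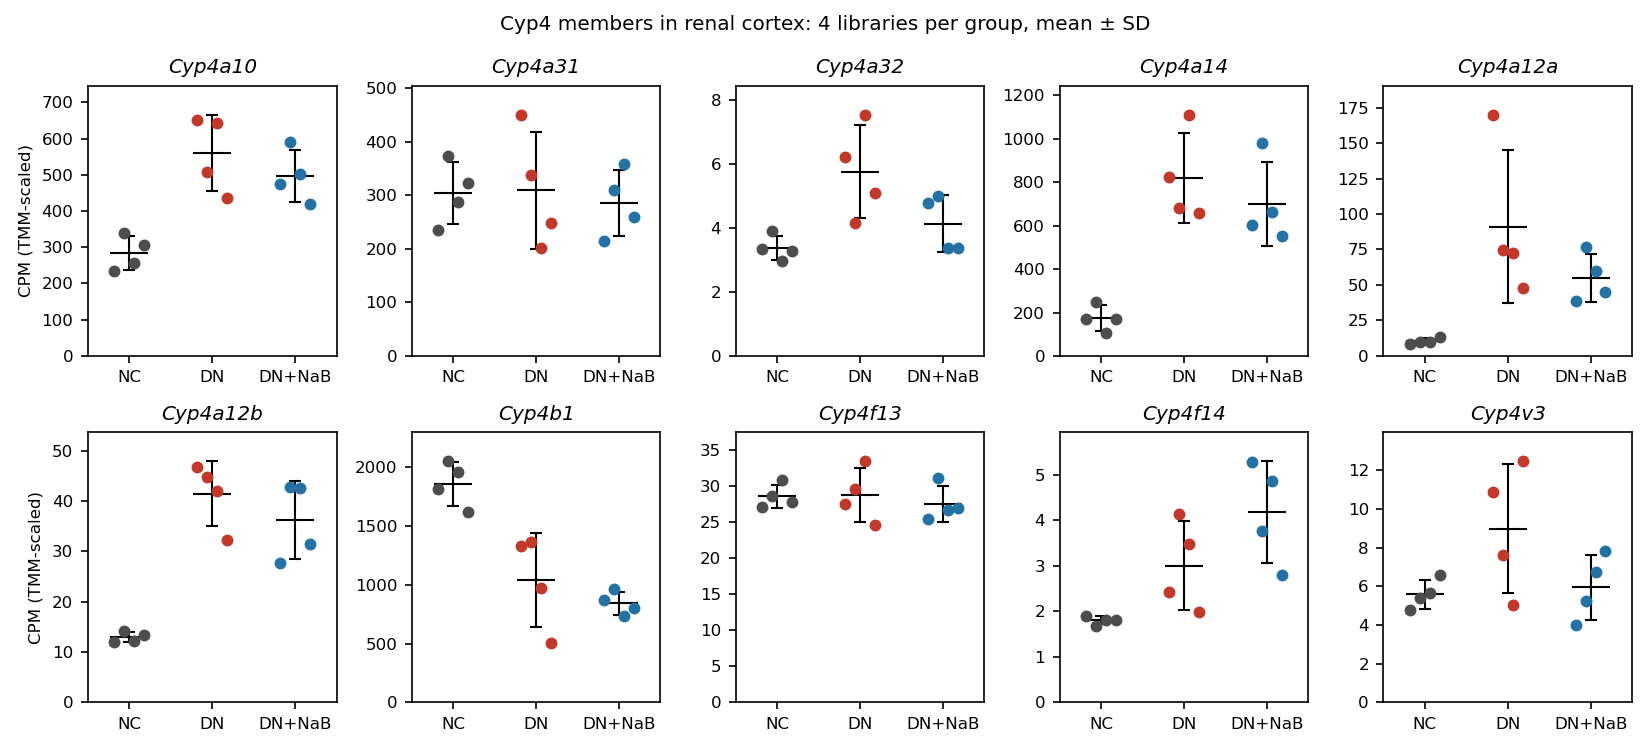
TMM-scaled CPM (vertical axes, from 0, each with its own range) of the 10 Cyp4 members in the NC, DN and DN+NaB libraries. Points are libraries, bars are means with SD (n = 4 per group). Cyp4a14, Cyp4a10, Cyp4a12a and Cyp4a12b lie higher in all DN and DN+NaB libraries than in any NC library, Cyp4b1 lies lower, and Cyp4a31 and Cyp4f13 overlap throughout.

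Cyp4a14, a lauric acid omega-hydroxylase strongly raised by PPAR-alpha agonists, had the largest absolute gain. Its CPM in replicates 1 to 4 was 169, 251, 104 and 171 in NC, 822, 683, 1110.5 and 660.2 in DN, and 601, 981, 663 and 552 in DN+NaB. The lowest diabetic library, treated or not, was above the highest NC library. The means were 174 ± 60.1, 819 ± 207 and 699 ± 193 CPM in NC, DN and DN+NaB (SD, n = 4). The log2 fold change of DN against NC was 2.24 ± 0.27 (SE), 4.72-fold, with an edgeR adjusted p of 0.000203. Since no 50-base window of Cyp4a14 occurs in another member, this is the Cyp4a value least open to reads shared with other members. Other Cyp4a genes and pseudogenes were not searched.

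Cyp4a10, a lauric and arachidonic acid hydroxylase and the neighbour of Cyp4a14, rose by less. Its CPM was 235, 340.4, 257 and 305 in NC, 651, 508, 643 and 436 in DN, and 475, 592, 502 and 418 in DN+NaB. Again no NC library reached the diabetic range. The fold change of DN against NC was 0.98 ± 0.16 on the log2 scale, 1.97-fold (adjusted p = 0.00169).

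Cyp4a31, its near-copy, did not pass the test. It stood at 235, 373, 287 and 323 CPM in NC, 450.3, 338, 201 and 249 in DN, and 215, 309, 358 and 260.3 in DN+NaB. The 3 groups overlapped, and DN held both the highest and the lowest of the 12 libraries. The log2 fold change of DN against NC was 0.02 ± 0.23 (adjusted p = 0.973), and its sign turned to -0.07 when libraries were scaled by total count alone.

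Cyp4a32, another copy, was far scarcer than Cyp4a10. Its CPM was 3.34, 3.90, 2.98 and 3.27 in NC, 6.22, 4.17, 7.54 and 5.10 in DN, and 4.78, 5.02, 3.37 and 3.39 in DN+NaB. All DN libraries were above all NC libraries, while DN+NaB overlapped both. It rose by 0.77 ± 0.21 on the log2 scale in DN (adjusted p = 0.0384). That call was lost when any NC library, DN replicate 1 or DN replicate 3 was left out (adjusted p from 0.053 to 0.104), when libraries were scaled by total count alone (log2 fold change 0.67, adjusted p = 0.0601), and when only the DN and NC libraries were fitted (0.06). With 34.8% of its 50-base windows and 13.8% of its 100-base windows in Cyp4a10, shared reads may enter its count.

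The sum Cyp4a10+Cyp4a31+Cyp4a32 does not depend on how reads were split among the copies if each shared read was counted once. It was 473, 717, 547 and 631 CPM in NC, 1108, 850.0, 852 and 689.8 in DN, and 695, 906, 863 and 682 in DN+NaB. The DN and NC ranges overlapped, since NC replicate 2 was above DN replicate 4. Its log2 fold change of 0.56 ± 0.17 in DN fell just short of the threshold (adjusted p = 0.0506), and it passed with RLE factors, no low-count filter, DESeq2 and limma-voom, and when NC replicate 2 (0.66) or DN replicate 4 (0.64) was left out. Its fold, 1.48, lay between those of Cyp4a31 and Cyp4a10, as the fold of a sum of these copies must.

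Cyp4a12a had the largest fold change of the members. It stood at 8.51, 9.78, 9.79 and 13.2 CPM in NC, 169.8, 74.6, 72.3 and 47.9 in DN, and 38.6, 76.7, 60.1 and 44.8 in DN+NaB. Every diabetic library was above every NC library, and DN replicate 1 stood far above the other 3 of its group. The log2 fold change of DN against NC was 3.14 ± 0.37, 8.83-fold (adjusted p = 0.000266). Without DN replicate 1 it was 2.65, still called.

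Cyp4a12b, the second copy, was more even between libraries. Its CPM was 12.0, 14.2, 12.2 and 13.4 in NC, 46.8, 44.8, 41.9 and 32.3 in DN, and 27.7, 42.9, 42.7 and 31.6 in DN+NaB. The log2 fold change of DN against NC was 1.68 ± 0.16, 3.20-fold (adjusted p = 1.96e-05). The sum Cyp4a12a+Cyp4a12b was 23.3 ± 2.61, 133 ± 58.7 and 91.2 ± 24.4 CPM in NC, DN and DN+NaB (SD, n = 4). Its log2 fold change in DN was 2.51 ± 0.28, 5.70-fold (adjusted p = 0.000123). The sum is free of the split between the copies only if each shared read was counted once, which is not known here.

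All 6 Cyp4a genes together took 663, 992, 673 and 829 CPM in NC, 2147, 1652, 2076 and 1430.2 in DN, and 1363, 2006, 1629 and 1311 in DN+NaB. The groups did not overlap with NC. The sum rose 2.30-fold in DN, by 1.20 ± 0.18 on the log2 scale (adjusted p = 0.000944).

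The makeup of the Cyp4a counts shifted along with their total. Within each library, Cyp4a14 made up 21.7 ± 4.77%, 44.8 ± 6.62% and 44.0 ± 3.56% of all Cyp4a counts in NC, DN and DN+NaB (SD, n = 4). Cyp4a12a+Cyp4a12b made up 3.0 ± 0.39%, 7.11 ± 2.14% and 5.74 ± 0.620% of them in the same order. Within the copies, Cyp4a10 was 48.1 ± 1.18%, 64.3 ± 7.71% and 63.3 ± 4.47% of Cyp4a10+Cyp4a31+Cyp4a32, and Cyp4a12a was 44.1 ± 4.09%, 66.0 ± 8.41% and 59.9 ± 2.85% of its pair. The shares within copies depend on how shared reads were assigned or dropped, which is not known here. All 4 shares were higher in every DN and DN+NaB library than in any NC library. Each of these 8 comparisons with NC gave p = 0.0286 by a two-sided exact permutation test, the smallest that 4 against 4 libraries allows (adjusted p = 0.0429 over 12 tests). They share the NC libraries, use the same counts as the fold changes above, and were added after the data were seen. They are therefore not further support for those fold changes. The 4 comparisons of DN+NaB with DN gave p from 0.2 to 0.857 by the same exact test.

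**Figure D2:**
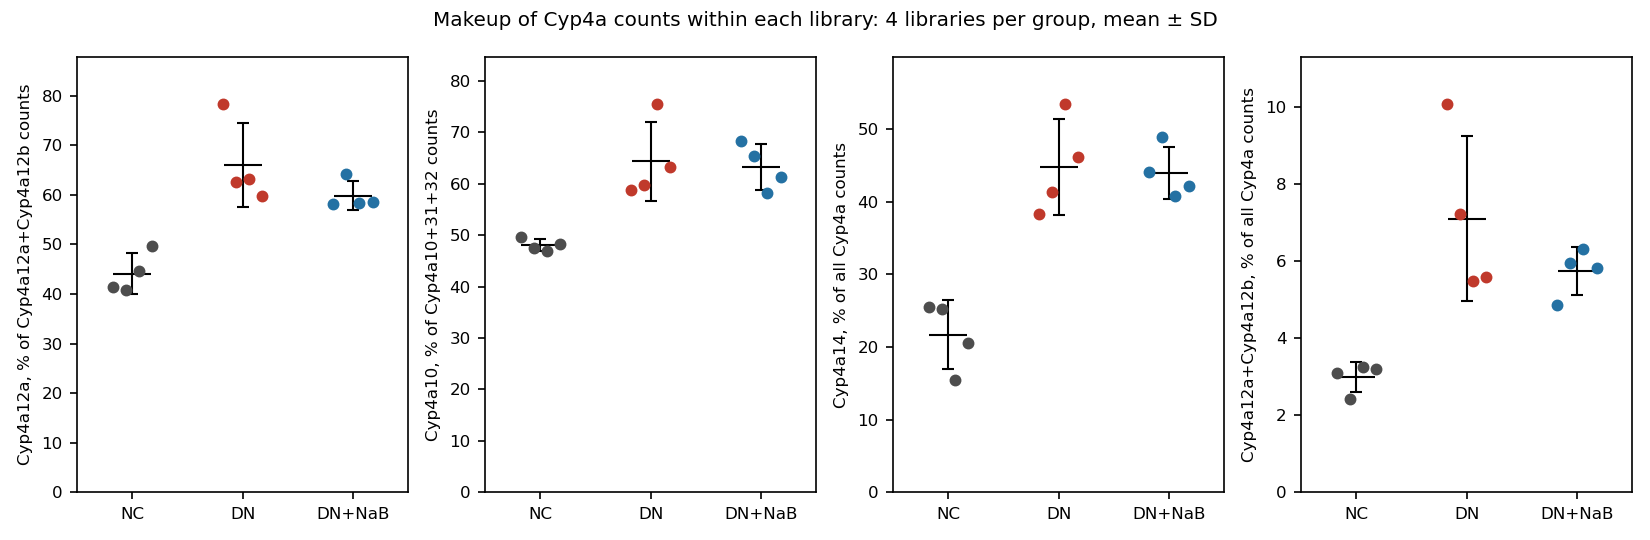
Shares of deposited counts within each library, in percent (vertical axes, from 0), for Cyp4a12a among its pair, Cyp4a10 among its 3 copies, Cyp4a14 among all Cyp4a genes and the Cyp4a12 pair among all Cyp4a genes. Points are libraries, bars are means with SD (n = 4 per group). In each panel the NC libraries lie below all diabetic libraries.

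Cyp4b1, which hydroxylates short and medium-chain fatty acids and activates plant furan toxins, was the most abundant member in NC and fell in the diabetic cortex. Its CPM was 1811, 2049, 1955 and 1616 in NC, 1327, 1360.0, 972 and 505 in DN, and 871, 967, 736 and 804 in DN+NaB. All diabetic libraries lay below all NC libraries, DN replicate 4 lay lowest, and the DN+NaB libraries were closer together than the DN libraries. In DN it fell by 0.84 ± 0.24 on the log2 scale, to 0.560 of the NC level (adjusted p = 0.0449). This call was close to the threshold. It was lost when any NC library, DN replicate 3 or any DN+NaB library was left out (adjusted p from 0.056 to 0.11), when only the DN and NC libraries were fitted (0.093) and with no low-count filter (0.064). Adding its pseudogenes changed little, with means of 1860.4 ± 189, 1043 ± 399 and 845 ± 98.6 CPM in NC, DN and DN+NaB.

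The Cyp4f members hydroxylate leukotrienes and long-chain fatty acids. Cyp4f13 stood at 27.1, 28.6, 30.8 and 27.7 CPM in NC, 27.5, 29.5, 33.4 and 24.5 in DN, and 25.4, 31.1, 26.7 and 26.9 in DN+NaB. The 3 groups overlapped, and its log2 fold change in DN was 0.01 ± 0.11 (adjusted p = 0.979), with the sign turning to -0.09 when libraries were scaled by total count alone. Its standard error was the smallest of the members.

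Cyp4f14, a leukotriene B4 omega-hydroxylase, was scarce. Its CPM was 1.90, 1.69, 1.81 and 1.82 in NC, 2.41, 4.14, 3.47 and 1.99 in DN, and 5.27, 3.76, 4.86 and 2.80 in DN+NaB. The highest NC library was 1.13 times the lowest, and every diabetic library lay above them. The log2 fold change in DN was 0.73 ± 0.26 and did not pass (adjusted p = 0.101). It passed with DESeq2 (0.045) and without DN replicate 4 (0.035).

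Cyp4v3, the mouse counterpart of the human enzyme whose loss causes Bietti crystalline dystrophy of the retina, stood at 4.79, 5.39, 5.63 and 6.59 CPM in NC, 10.9, 7.62, 5.03 and 12.5 in DN, and 4.02, 5.23, 6.73 and 7.81 in DN+NaB. Of the DN libraries 3 lay above NC and replicate 3 lay inside the NC range. Its log2 fold change in DN was 0.68 ± 0.27 (adjusted p = 0.144), and without DN replicate 3 it was 0.88 and passed (0.036).

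**Figure D3:**
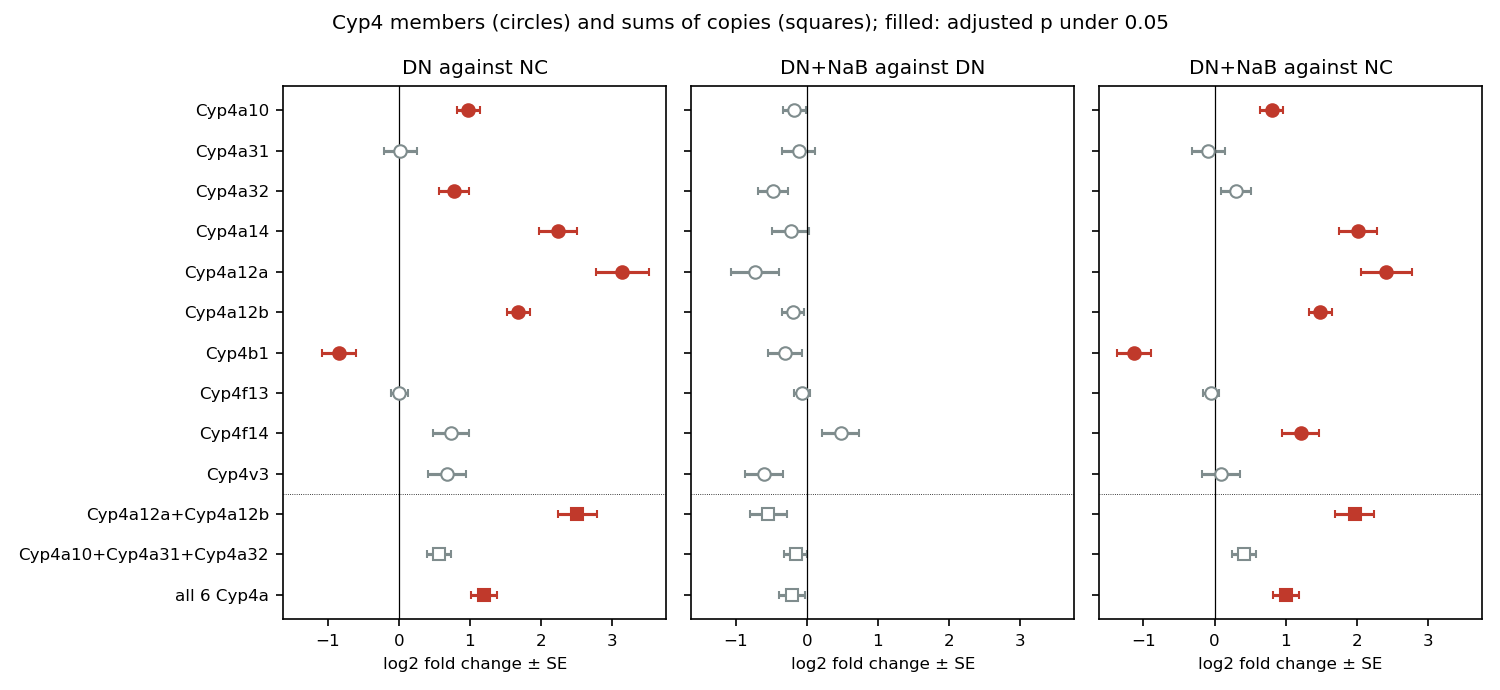
Log2 fold change with SE (horizontal axes) of each Cyp4 member (circles) and each sum of copies (squares) in DN against NC, DN+NaB against DN and DN+NaB against NC. Filled symbols have an adjusted p under 0.05: 6 members in each comparison with NC and none in DN+NaB against DN.

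The comparison of DN+NaB with DN asks what butyrate changed within the diabetic model. None of the 10 members and none of the 3 sums passed the edgeR test. Among all tested genes 4 passed, or 0.0228%, while 1726 had an unadjusted p under 0.05 and DESeq2 called 257. No member was called by DESeq2 or by any other alternative. No member separated the 2 groups without overlap, against 2.13% of all genes separated upward and 2.44% downward. The log2 fold changes were negative for 9 of 10 members, with a median of -0.21, against -0.02 over all genes, of which 52.8% were negative. The members share libraries, and a library high or low in several members moves all of them.

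Cyp4a12a had the lowest of these log2 fold changes, -0.73 ± 0.34 (adjusted p = 0.517). Without DN replicate 1 it lay nearer 0, at the upper end of a range from -0.94 to -0.24 over the alternatives. Cyp4v3 (-0.60 ± 0.27) and Cyp4a32 (-0.48 ± 0.21) were the members with an unadjusted edgeR p under 0.05, at 0.0416 and 0.0410, with adjusted p of 0.485 and 0.484. Cyp4f14 was the member on the other side, at 0.48 ± 0.25 (adjusted p = 0.577). Cyp4a14, Cyp4a10, Cyp4a12b and Cyp4a31 lay between -0.23 and -0.11, Cyp4b1 was at -0.30 ± 0.24 and Cyp4f13 at -0.06 ± 0.11. The sum of all 6 Cyp4a genes was at -0.21 ± 0.18 (adjusted p = 0.718), that of Cyp4a12a+Cyp4a12b at -0.54 ± 0.26 (0.537) and that of Cyp4a10+Cyp4a31+Cyp4a32 at -0.15 ± 0.16 (0.783). A p that misses the threshold does not show that the groups are alike.

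Butyrate-treated diabetic cortex against normal cortex gave 5 members higher and 1 lower. Over all genes 15.6% were called here, 6.62% higher and 8.94% lower. All DN+NaB libraries lay above all NC libraries for 5 members, against 14% of all genes, and below for 1, against 13.9%. The median log2 fold change was 0.55 over the members and -0.01 over all genes. As in DN against NC, the choice of members and the reads that copies may share make these values descriptions only. This comparison and that of DN with NC share the NC libraries, so their values stand side by side and are not independent.

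Cyp4a14 was at 2.01 ± 0.27 on the log2 scale in DN+NaB against NC (adjusted p = 0.000272), beside 2.24 in DN. Cyp4a12a was at 2.41 ± 0.36 (0.000909), Cyp4a12b at 1.48 ± 0.16 (4.63e-05) and Cyp4a10 at 0.80 ± 0.16 (0.00386). Cyp4f14 rose here by 1.21 ± 0.26, 2.31-fold (0.00584), and Cyp4b1 fell by 1.14 ± 0.24, to 0.455 of NC (0.00552). These 6 calls held in each of the 22 alternatives. Cyp4a32 was at 0.30 ± 0.21 (0.383), Cyp4a31 at -0.09 ± 0.23 (0.830), Cyp4v3 at 0.09 ± 0.27 (0.859) and Cyp4f13 at -0.05 ± 0.11 (0.796), none of them called. The signs of Cyp4a31 and Cyp4v3 turned in some alternatives. The sum of all 6 Cyp4a genes was 2.0-fold NC (1.0 ± 0.18 on the log2 scale, 0.00225), Cyp4a12a+Cyp4a12b was 3.92-fold (1.97 ± 0.27, 0.000430), and Cyp4a10+Cyp4a31+Cyp4a32 was 1.33-fold and not called (0.41 ± 0.16, 0.110).

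Levels can be compared between members only per length. Per kilobase of exon (GENCODE vM21 union exons, a length that is 4441 bases for Cyp4f13 against 1752 for its coding transcript), the order of mean levels in NC was Cyp4b1 at 824 ± 83.5 CPM per kilobase, Cyp4a10 at 135 ± 22.5, Cyp4a31 at 121 ± 23.2 and Cyp4a14 at 66.8 ± 23.1. There followed Cyp4f13 at 6.43 ± 0.367, Cyp4a12b at 5.41 ± 0.434, Cyp4a12a at 4.26 ± 0.831, Cyp4a32 at 2.20 ± 0.250, Cyp4v3 at 1.47 ± 0.196 and Cyp4f14 at 0.745 ± 0.0360. Neighbours overlapped for Cyp4a10 with Cyp4a31, Cyp4a31 with Cyp4a14 and Cyp4a12b with Cyp4a12a. The annotation behind the counts and the rule for shared reads are not known, so the places of near-identical copies are uncertain in every group. The exon length of Cyp4a32 was 1536 bases, of which 1527 code, against 2109 for Cyp4a10 and 2509 for Cyp4a31.

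In DN the order was Cyp4b1 at 461 ± 177 CPM per kilobase, Cyp4a14 at 315 ± 79.7, Cyp4a10 at 265 ± 50.04, Cyp4a31 at 123 ± 43.7, Cyp4a12a at 37.6 ± 22.2 and Cyp4a12b at 17.3 ± 2.69, followed by Cyp4f13, Cyp4a32, Cyp4v3 and Cyp4f14 between 6.47 and 1.24. The ranges of Cyp4b1, Cyp4a14 and Cyp4a10 overlapped from each to the next, as did those of Cyp4a32, Cyp4v3 and Cyp4f14. Cyp4a14 thus moved from the fourth place to the second, and Cyp4a12a passed Cyp4a12b and Cyp4f13. In DN+NaB the first 8 places had the same order as in DN, from Cyp4b1 at 374 ± 43.7 to Cyp4a32 at 2.70 ± 0.574, and Cyp4f14 at 1.72 ± 0.461 stood above Cyp4v3 at 1.56 ± 0.437, with overlapping ranges.

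Of the 17 other Cyp4 symbols in the table, 12 were listed for comparison. The remaining 5 were the Cyp4b1 pseudogenes named above, Cyp4b1-ps1 and Cyp4b1-ps2, which were tested but not listed, and Cyp4a30-ps, Cyp4f38-ps and Cyp4x1os, with at most 1 count in any library. Of the 12 listed, 5 were tested and none was called in DN against NC. The log2 fold changes were 0.40 ± 0.14 for Cyp4f16 (adjusted p = 0.102, called with DESeq2 at 0.042), 0.10 ± 0.15 for Cyp4f17, -0.49 ± 0.85 for Cyp4f15, -0.56 ± 0.56 for Cyp4f18 and -0.01 ± 0.59 for the pseudogene Cyp4f41-ps. Cyp4f18, a leukotriene B4 hydroxylase of white blood cells, fell in DN+NaB against NC, from 1.62 ± 0.360 to 0.199 ± 0.179 CPM (log2 fold change -2.99 ± 0.62, adjusted p = 0.00526). Against DN it was at -2.43 ± 0.62 and not called by edgeR (0.183), and it was called with DESeq2 (-2.45, adjusted p = 0.00482). Cyp4a29 had no count in any library, and Cyp4a30b and Cyp4x1 had at most 1 and 5.

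The enzymes that pass electrons to microsomal P450s did not pass the test. Por, the reductase that serves all of them, was at 929 ± 64.7 CPM in NC and 998 ± 237 in DN, a log2 fold change of 0.10 ± 0.17 (adjusted p = 0.783). Cyb5a was at -0.54 ± 0.17 (0.0671) and was called with 8 of the alternatives. Cyb5b was at -0.12 ± 0.12 and Cyb5r3 at -0.14 ± 0.13.

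Of the PPAR and RXR receptors and the coactivator Ppargc1a, 6 were tested, with 1 higher and 1 lower in DN. Ppara, the receptor that drives Cyp4a10 and Cyp4a14, was at 244 ± 51.3 CPM in NC and 289 ± 38.4 in DN (log2 fold change 0.25 ± 0.17, adjusted p = 0.438). Its partner Rxra was at 0.28 ± 0.12 (0.209), and Ppargc1a at -0.04 ± 0.11 (0.866). Rxrg, a second RXR, rose from 0.179 ± 0.0942 to 1.27 ± 0.274 CPM (2.81 ± 0.40, 0.000539). Pparg, the adipose-type PPAR, fell from 2.84 ± 0.743 to 1.49 ± 0.192 CPM (-0.93 ± 0.26, 0.0411), and that call was lost in 10 alternatives. Ppard was at 1.11 ± 0.74 (0.426) with levels under 1 CPM on average, and without DN replicate 1 its sign turned (-0.28).

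Other genes that PPAR-alpha is known to raise were mixed. Of 23 tested, 3 rose and 3 fell in DN, with a median log2 fold change of 0.02. Among those that rose, the lipid droplet coat gene Plin2 was at 0.43 ± 0.11 (adjusted p = 0.0259) and the beta-oxidation subunit Hadhb at 0.41 ± 0.10 (0.0241), both close to the threshold and lost in 6 and 7 alternatives. Ehhadh, a peroxisomal enzyme of dicarboxylic acid oxidation, fell to -0.86 ± 0.14 (0.00181), and Acadm was at -0.74 ± 0.14 (0.00411) and Acot12 at -0.73 ± 0.13 (0.00342), both lower too. Acot2 (0.39 ± 0.13) and Cpt1a (-0.23 ± 0.13) did not pass. In DN+NaB against NC 4 rose and 3 fell, with the acyl-CoA thioesterases Acot2 at 0.68 ± 0.13 (0.00250) and Acot1 at 0.55 ± 0.17 (0.0371) among those that rose. The Acot1 call was lost in 7 alternatives, 5 of them with 1 library left out (adjusted p from 0.0578 to 0.108).

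None of the genes listed downstream of omega-hydroxylation was called higher in DN. Of 16 tested genes of omega and dicarboxylic acid oxidation, 4 fell and none rose in DN, with a median of -0.16. The carnitine transferase Crot was at -1.34 ± 0.21 on the log2 scale (adjusted p = 0.00126), the alcohol dehydrogenase Adh1 at -1.30 ± 0.20 (0.00108), the racemase Amacr at -0.79 ± 0.20 (0.0221) and the peroxisomal transporter Abcd3 at -0.62 ± 0.12 (0.00581). The Amacr call was lost without NC replicate 3 (0.0654) and with only the DN and NC libraries fitted (0.0556). Aldh3a2, the fatty aldehyde dehydrogenase, was at -0.25 ± 0.12 (0.231). In DN+NaB against NC 5 fell and 1 rose, the acyl-CoA synthetase Acsl1 (0.56 ± 0.16, 0.0269). The Acsl1 call was lost in 5 alternatives (adjusted p from 0.0659 to 0.0840). Against DN, Acsl1 was at 0.69 ± 0.16 and not called by edgeR (0.130), and it was called with DESeq2 (0.68, adjusted p = 0.00831).

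Of 12 other genes of arachidonic acid release and metabolism (epoxygenases, epoxide hydrolases, a phospholipase and cyclooxygenases, with the 20-HETE receptor Gpr75), 11 were tested, and 1 rose and 1 fell in DN. Gpr75 had at most 8 counts and was not tested. The epoxygenase Cyp2c44 rose from 47.3 ± 3.90 to 133 ± 36.8 CPM (log2 fold change 1.49 ± 0.19, adjusted p = 0.000243). Cyp2j9 fell from 4.72 ± 0.898 to 1.87 ± 0.191 CPM (-1.34 ± 0.20, 0.000806). The abundant Cyp2j5 (-0.40 ± 0.23, 0.343) and the epoxide hydrolase Ephx2 (-0.25 ± 0.17, 0.433) did not pass. In DN+NaB against NC, Cyp2c44 was at 1.73 ± 0.19 (5.39e-05) and Cyp2j13 fell by 2.14 ± 0.52 (0.0192; lost without DN+NaB replicate 1, 3 or 4, adjusted p from 0.0545 to 0.0602), with 1 higher and 2 lower of the 11.

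**Figure D4:**
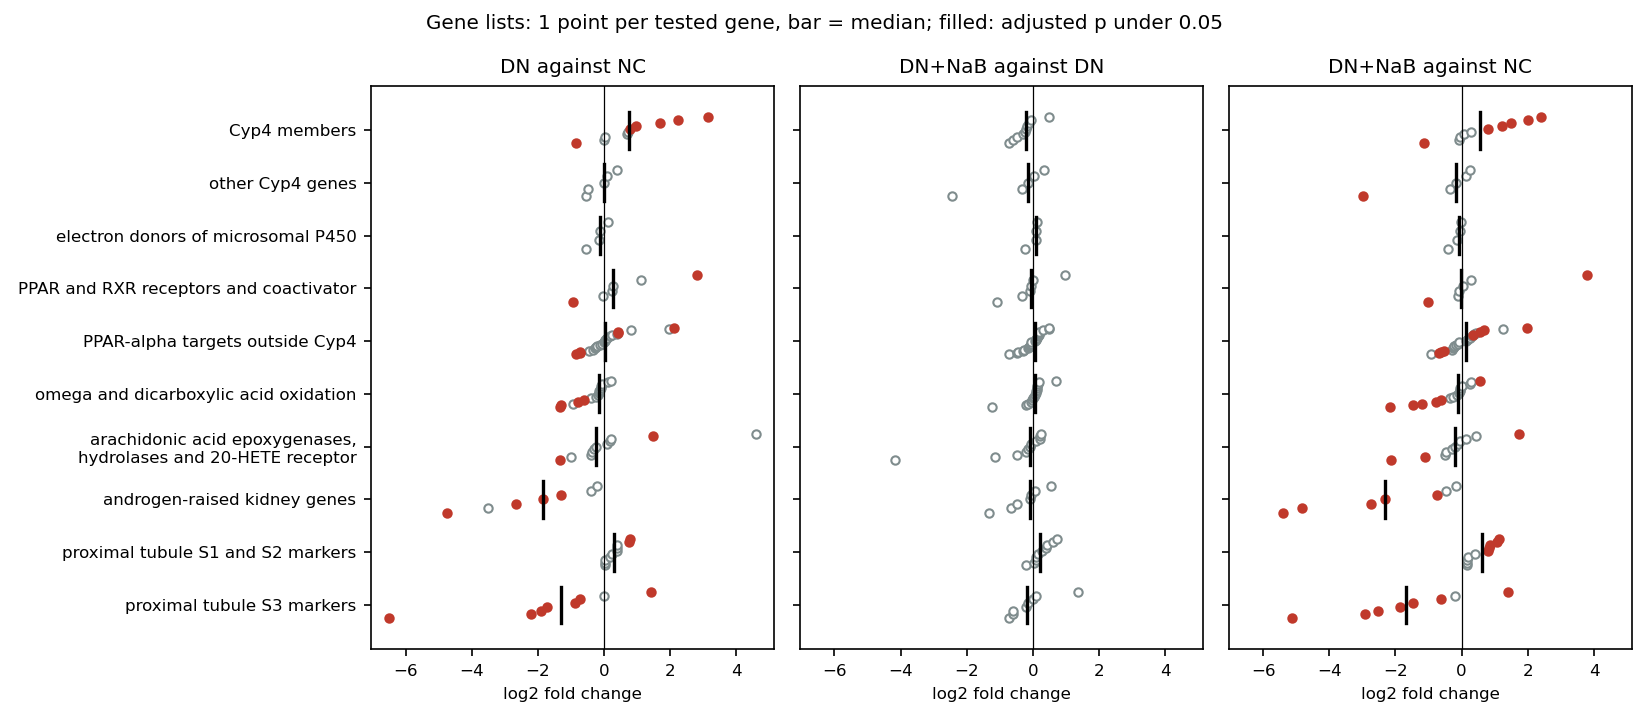
Log2 fold change (horizontal axes) of each tested gene in the Cyp4 members and in 9 other gene lists, in 3 panels for DN against NC, DN+NaB against DN and DN+NaB against NC. Points are genes, filled where the adjusted p is under 0.05, and vertical bars are list medians. In DN against NC the Cyp4 members have a median of 0.75, the PPAR-alpha targets outside Cyp4 0.02 and the androgen-raised kidney genes -1.85, and no point is filled in DN+NaB against DN.

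Markers of hormone action and of nephron segment moved with the same groups. Of 7 tested kidney genes that androgen raises, 4 fell and none rose in DN, with a median of -1.85. They were Acsm3 (-4.74 ± 0.41, adjusted p = 2.66e-05), Kap (-2.68 ± 0.38, 0.000845), Odc1 (-1.30 ± 0.19, 0.000591) and Cyp7b1 (-1.85 ± 0.50, 0.0422, lost in 10 alternatives). All 7 listed genes summed to 6167 to 10595 CPM across NC libraries, 1295 to 2995 across DN and 1730.4 to 2804 across DN+NaB, where 5 of 7 were lower than in NC. Cyp4a12a, which androgen is known to raise, had the opposite sign to these genes. Of 4 hormone receptors, Ghr (-0.90 ± 0.21, 0.0175) and Esr1 (-0.67 ± 0.18, 0.0319) fell, calls lost in 2 and 6 alternatives, while Prlr (0.31 ± 0.19, 0.377) did not pass. In DN+NaB against NC 2 of the 4 were lower, Esr1 at -1.44 ± 0.18 and Ghr at -1.12 ± 0.21.

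Proximal tubule markers of the S3 segment fell, with 6 of 8 lower and 1 higher in DN and in DN+NaB against NC. In DN Slc22a7 was at -6.49 ± 0.45 (adjusted p = 4.62e-06), Slc7a13 at -2.20 ± 0.28 (0.000319) and Atp11a at -1.92 ± 0.15 (3.30e-06), and Slc5a10 rose by 1.41 ± 0.25 (0.00292). All 8 S3 markers summed to 3059 to 4295 CPM across NC libraries, 1381 to 1999.5 across DN and 1126 to 1717 across DN+NaB. Of 10 S1 and S2 markers 2 rose in DN, Slc7a7 (0.79 ± 0.15, 0.00501) and Slc2a2 (0.75 ± 0.16, 0.0111), and 5 in DN+NaB against NC. All 10 summed to 21737 to 26395 CPM across NC libraries, 19499 to 31461 across DN and 27010.4 to 35582 across DN+NaB. The part of segment makeup or hormone state in the Cyp4 changes was not tested.

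Cyp4a genes are also liver genes. Of 12 hepatocyte markers 6 were tested, and Alb (1.13 ± 0.26, adjusted p = 0.0152) and Fgg (2.83 ± 0.63, 0.0196) rose in DN, while Fga (1.29 ± 0.45, 0.114), Fgb (1.09 ± 0.62, 0.343), Apoa1 (-0.30 ± 0.36, 0.702) and Apoa2 (-0.41 ± 0.20, 0.251) were not called. Without DN replicate 4 the value of Fgb was -0.03. The Fgg call was lost in 6 alternatives, and that of Alb without NC replicate 1 (adjusted p = 0.0523). All 12 summed to 47.7 to 52.0 CPM across NC libraries, 51.7 to 230.4 across DN and 65.4 to 136 across DN+NaB. Tat and Mup20 had no count in any library, and Cps1, Serpina3k and Cyp3a11 had at most 4, 2 and 6 counts. For the lung, where Cyp4b1 is high, Scgb3a2 and Sftpb had no count and Sftpc had at most 1. Scgb1a1, also too scarce to be tested, peaked at 7 counts within NC, at 1 within DN and at 0 within DN+NaB. Cyp2f2 was the tested marker of 5, rising from 0.696 ± 0.156 to 3.03 ± 1.36 CPM in DN (2.12 ± 0.30, 0.000465). Any rise in this list thus rests on Cyp2f2 alone. Of 6 adipocyte markers 2 were tested, with none called in DN and 1 lower in DN+NaB against NC, and the sum of all 6 ranged from 16.4 to 19.2 CPM in NC and 4.08 to 14.3 in the diabetic libraries. Of 5 neuronal markers 3 were tested and none was called, with sums of at most 0.783 CPM. Of 5 endothelial markers 1 was lower in both comparisons with NC, with sums of 530 to 605 CPM in NC and 435 to 575 in the diabetic libraries. No gene of these lists was called in DN+NaB against DN.

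The genes with the profile most like each member were found over the 12 libraries, among 12373 genes, by the root mean square (RMS) difference of log2 CPM after each gene's mean was subtracted. These are descriptions with no test. For Cyp4a14 the nearest included the pseudogene Rpl3-ps2 (RMS difference 0.38) and Tm6sf2 (0.44), where the member's own RMS deviation from its mean was 1.08. Tm6sf2 was at 4.87, 18.9 and 25.9 CPM on average in NC, DN and DN+NaB. Cyp4a12a was nearest to Ankrd6 (0.56) and Rpl3-ps2 (0.61), with an own deviation of 1.37.

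Cyp4a10 was nearest to Bmp6 (RMS difference 0.15), Eci1 (0.16) and Pklr (0.20), and Bmp6 had means of 94.9, 182 and 179 CPM in NC, DN and DN+NaB. Cyp4a12b was nearest to another P450, Cyp2d22 (0.16; 29.3, 92.3 and 83.2 CPM), then to Ube2d-ps (0.25) and Tmem151b (0.29). Cyp4a31, whose own deviation was 0.33, was nearest to Decr1 (0.17), Vnn1 (0.19) and Ebag9 (0.19). Of these, Decr1 is a mitochondrial enzyme of unsaturated fatty acid oxidation and Vnn1 a pantetheinase. Cyp4a32, whose own deviation was 0.40, was nearest to Pdia4 (0.19), Lama3 (0.22) and Calr (0.22), of which Pdia4 and Calr encode chaperones of the endoplasmic reticulum.

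Cyp4b1 was nearest to the riboflavin transporter Slc52a3 (RMS difference 0.20; 51.2, 27.2 and 25.8 CPM in NC, DN and DN+NaB), Kyat1 (0.23) and Nsg2 (0.24). Cyp4f14 was nearest to Fbp2 (0.20), Stra6 (0.21) and Tbc1d16 (0.23), each highest on average in DN+NaB. Cyp4v3 was nearest to Rtn4 (0.13), Sppl2a (0.15) and Ptbp2 (0.17), each highest on average in DN. Cyp4f13, whose own deviation was 0.12, was nearest to Pomt2 (0.06), Cdhr5 (0.06) and Gtf3c2 (0.07).

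Promoter sequence was looked at for the nuclear receptor half-site AGGTCA, searched with its other strand TGACCT, and for the PPAR:RXR element DR1, a pair of such half-sites in the same direction with 1 base between. RefSeq windows of 300 bases (250 before to 50 after the start, GRCm38.p6) matched 5 of the 10 members, and Cyp4a10, Cyp4a14, Cyp4a12a, Cyp4a12b and Cyp4a31 were not matched. The windows of Cyp4a32, Cyp4b1, Cyp4v3, Cyp4f13 and Cyp4f14 held neither the half-site nor a DR1, exact or with up to 2 mismatches. Of all 32851 windows 16.3% held a half-site, 0.0396% an exact DR1 and 3.86% a DR1 with up to 2 mismatches. This says only that these letters are not in these windows.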

How the data were processed

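Counts per gene in 12 libraries were deposited by the authors as 1 table. Reads were aligned with HISAT2 2.0.4, per the submitters' processing notes; the counting program, strand setting, annotation and build of the genome were not given in the sources used here. From the deposited counts, genes were filtered with filterByExpr by group (17530 kept) and scaled by TMM. They were tested with edgeR 4.0.16 (R 4.3.3; quasi-likelihood, robust, group as the only term, all 12 libraries in 1 fit, two-sided), with Benjamini-Hochberg adjustment over all tested genes. Sums of copies were tested in 2 further whole-table fits. The main fit was also run on simulated negative binomial counts with known changes. That simulation held no shared reads and no batch, and its outcome is not reported here. Alternatives were RLE, upper quartile or no scaling factors, 2 other filters, DESeq2 1.42.0, limma-voom (limma 3.58.1), no robust estimation, a replicate block, only the 2 groups compared, and each library left out. Shares of copies were compared by exact permutation tests, added after the data were seen.

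The members and gene lists were chosen with earlier results of these data known. All 10 members are named. From other lists, up to 4 genes per list and comparison with the smallest p are named, with every tested receptor, electron donor and other Cyp4 gene. A few genes that this rule would name are not reported here. Total counts were 58394975 to 70674015 per library. No pair of libraries agreed within sampling noise (smallest chi-square per degree of freedom 19.1).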

Additional observations from a re-analysis of the deposited data

Results flagged for a closer look

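Among 54 sets of 4 libraries looked at (members, sums and shares in each group), 1 held a library apart from the other 3. The Cyp4a12a share of Cyp4a12a+Cyp4a12b was 64.1% in DN+NaB replicate 2 and 58.2% to 58.6% in the other 3 DN+NaB libraries. The gap was 0.927 of the group's range, above Dixon's 95% critical value for 4 values. Chance alone sets apart about 1 in 20 such groups. That library was also the highest of its group for 7 of the 10 members.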

How the results depend on the processing

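In DN against NC and in DN+NaB against NC, Cyp4a10, Cyp4a14, Cyp4a12a, Cyp4a12b, Cyp4a12a+Cyp4a12b and the sum of all 6 Cyp4a genes kept their call and direction in all 22 alternatives. The number of members called in DN against NC ranged from 4 to 7. The sum Cyp4a10+Cyp4a31+Cyp4a32 in DN against NC passed the threshold with RLE factors (0.57), no low-count filter (0.55), DESeq2 (0.57) and limma-voom (0.56), and ranged from 0.43 to 0.66 with 1 library left out. Genes called over the whole table in DN against NC numbered 1443 and 942 to 1976 with 1 library left out, the lowest without NC replicate 1. In DN+NaB against DN 4 genes were called, and 22 with RLE factors, 26 with library size only, 27 with no filter, 17 with a filter of at least 1 CPM in 4 libraries, 257 with DESeq2, 2 with limma-voom, 0 with only the 2 groups compared, and 0 to 67 with 1 library left out. Library size only moved the share of higher among called genes from 46.4% to 31.3% in DN against NC and from 42.5% to 29.7% in DN+NaB against NC, where the median of all genes was -0.12. The causes were not tested.

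Signs turned for some values that were not called. In DN against NC these were Cyp4a31 (-0.00827 with upper quartile factors, -0.0714 with library size only, -0.0231 with limma-voom, -0.21 to 0.18 with 1 library left out), Cyp4f13 (-0.0258 and -0.0911 with the first 2 of these, -0.00411 with no filter, -0.0184 with the CPM filter, -0.0698 to 0.0572), Cyp4f17 (-0.00189 with library size only, -0.0241 to 0.165), Por (-0.00334 with library size only), Cyp4f41-ps (0.23 with limma-voom, -0.34 to 0.28), Ppard (-0.28 to 1.56, negative without DN replicate 1), Fgb (-0.0337 to 1.44, negative without DN replicate 4) and Ppargc1a (-0.113 to 0.0172). With 1 library left out, Cyp4a31 ranged from -0.27 to 0.12 and Cyp4f13 from -0.126 to 0.0192 in DN+NaB against DN. In DN+NaB against NC, Cyp4a31 ranged from -0.22 to 0.0248 and Cyp4v3 from -0.0694 to 0.24, with -0.0253 under library size only.

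The labels do not say whether the replicate numbers pair the libraries, and pairing was not tested. Correlations of same-numbered deviations ran from -0.0856 to 0.200 in DN against NC, from -0.245 to 0.269 in DN+NaB against DN and from -0.0719 to 0.224 in DN+NaB against NC. In the same order, 4, 3 and 6 of 8 libraries correlated best with their own number among the 4 libraries of the other group. With the replicate number as a block, Cyp4a32 in DN against NC had an adjusted p of 0.064, Cyp4f41-ps was at 0.17, 7 genes were called in DN+NaB against DN, and no other member changed its call. Copy shares were not recomputed with libraries left out. The scarcest member, Cyp4f14, had 109 to 310 counts per library, which limits its precision.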
